A study of Caenorhabditis elegans with 10 samples.

Results

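Loss of mitochondrial complex I was brought about in 2 ways in Caenorhabditis elegans, by a missense allele of gas-1 and by feeding RNAi against single complex I subunits, and the expression responses to both were set against each other gene by gene. For each of 12641 genes, the log2 ratio of the gas-1 array to its own wild type was compared with the 5 log2 ratios of the complex I RNAi arrays to their own wild type. These 6 loss arrays and 2 wild types made up 8 of the 10 Affymetrix whole-genome arrays of the series, which was designed to show metabolic pathways downstream of respiratory chain mutations. The remaining arrays, of complex II and complex III mutants, entered the normalisation, the filter and 1 alternative model.

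The gas-1(fc21) animals carried the missense mutation and were grown on plates of OP50 bacteria and then in K12 liquid culture. The RNAi animals were N2 larvae fed bacteria against nduf-6 (F22D6.4), nuo-5 (Y45G12B.1), ndua-13 (C34B2.8), ndab-1 (Y56A3A.19) or ndub-7 (D2030.4) for 2 generations on plates and for the next in liquid, with 5 mM IPTG throughout. Values of the 5 RNAi arrays are given in this order. The control of gas-1 was N2 wild type in the OP50 and K12 regime, and the control of the RNAi animals was N2 wild type kept on HT115 on plates and in liquid. Bacteria and double-stranded RNA differ between the gas-1 and the RNAi side of the comparison, and IPTG is named for the RNAi arrays only. No IPTG and no empty vector are named in the label of the HT115 array. Inducer and double-stranded RNA may therefore differ within each RNAi ratio, and their part cannot be told apart from that of complex I loss. Animals were mainly young adults, enriched by sucrose centrifugation, and whole worms were extracted. RNA of 3 biological replicates was pooled onto each array, so gas-1 and each wild type are single arrays and the spread between replicate cultures was not measured.

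Complex I, the NADH:ubiquinone oxidoreductase, passes electrons from NADH to ubiquinone and pumps protons across the inner mitochondrial membrane. The gas-1 gene encodes a core subunit of it, and gas-1(fc21) animals are known for hypersensitivity to volatile anaesthetics and to oxygen and for a short life. RNAi against respiratory chain subunits in C. elegans is known instead for slow development and, for several subunits, a longer life, and stress of either kind can induce mitochondrial chaperones and enzymes of detoxification.

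The mutated and targeted genes were examined in each array first. A point mutation need not change the mRNA, and gas-1 itself stood at 131% of the K12 wild type in the gas-1 array. The array labelled nuo-5 RNAi held its target at 51.9% of the HT115 wild type, the array labelled ndua-13 RNAi at 70.5%, the array labelled nduf-6 RNAi at 83.9% and the array labelled ndub-7 RNAi at 88.8%. The ndub-7 gene was lower in 3 other arrays than in its own, at 66.7% in the nduf-6 array, 83.9% in the ndua-13 array and 88.7% in the ndab-1 array. In the ndab-1 RNAi array the targeted gene went against the label, at 211% of the HT115 wild type, while a lower-signal probe set of the gene gave 88.3%. With 1 array per target these percentages have no replicate error, and all RNAi arrays are named by their labels. The 2 wild types differed by at least 1.5-fold in 2659 genes (21% of those tested), with K12 the higher in 1308 and the lower in 1351. All 5 RNAi ratios share the HT115 array, so their agreement with one another is not replication. The gas-1 ratio shares no array with them.

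On the gas-1 side, 988 genes (7.82%) stood at least 1.5-fold above and 1199 (9.49%) at least 1.5-fold below the K12 wild type. On the RNAi side, 228 genes (1.8%) were at least 1.5-fold higher in all 5 arrays and 335 (2.65%) at least 1.5-fold lower in all 5. Of the 228 genes higher in all 5 RNAi arrays, 62 (27.2%) were also higher in gas-1 and 36 (15.8%) were lower there. Of the 335 genes lower in all 5, 108 (32.2%) were also lower in gas-1 and 12 (3.58%) were higher. Seen from gas-1, the 62 shared higher genes were 6.28% of its 988 and the 108 shared lower genes were 9.01% of its 1199. The 62 and 108 genes agreeing in all 6 ratios came to 0.49% and 0.854% of the genes tested, and the 12 and 36 opposed genes to 0.0949% and 0.285%. With the nduf-6 array left out the counts were 109 and 170 agreeing and 22 and 69 opposed genes, and without the nuo-5 array 29 genes were higher in gas-1 and lower in RNAi. By sign alone, with no threshold, 1101 genes (8.71%) stood above 0 in all 6 ratios and 1452 (11.5%) below 0.

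**Figure D1:**
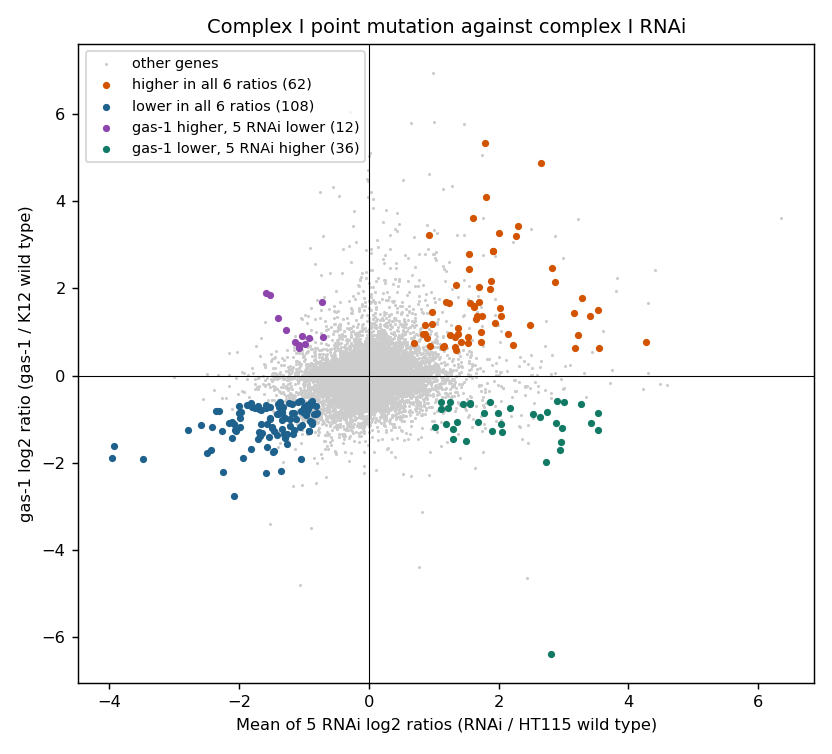
The gas-1 log2 ratio to the K12 wild type (vertical axis) is plotted against the mean of the 5 RNAi log2 ratios to the HT115 wild type (horizontal axis), 1 point per gene. Coloured points are the 62 and 108 genes past 1.5-fold in the same direction in all 6 ratios and the 12 and 36 opposed genes, and most of the grey cloud shows little relation between the axes.

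Across all 12641 genes the gas-1 ratio was only weakly related to the RNAi ratios, as the plot of one against the other shows. Pearson's r was 0.17, 0.30, 0.15, 0.13 and 0.14 against the 5 RNAi arrays and 0.21 against their mean. These are descriptions across genes, which are not independent replicates. The array labelled nuo-5 RNAi, in which the target was lowest relative to wild type, lay nearest to gas-1: of genes past 1.5-fold in both, 81.4% had the same direction, against 70.7%, 67.7%, 64.5% and 60.3% for the other RNAi arrays. With the 2 wild types exchanged as controls, r was -0.17, -0.03, 0.23, 0.19 and 0.10, so the order of the RNAi arrays depends on which wild type stands under which mutant.

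The 62 genes higher in all 6 ratios included P450 enzymes, UDP-glucuronosyltransferases, heme-responsive genes and C-type lectins. RNA came from whole animals, so here and below more cells of a type and more RNA per cell cannot be told apart. The genes are ordered by the smallest of their 6 ratios among those whose higher arrays lay above the median level of 7.56 (log2), a condition that 40 of the 62 met. Members outside the leading 15 were picked for naming after their values were seen.

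Cytochrome P450 enzymes oxidise foreign and lipid compounds, and 3 of 51 measured were among the agreeing higher genes, against 0.49% of all genes. The P450 gene cyp-14A1 stood at a log2 level of 8.37 in gas-1 and at 6.70, 6.67, 5.97, 5.77 and 5.52 in the RNAi arrays, against 3.5 in the K12 and 3.48 in the HT115 wild type. Its 6 loss arrays lay far above both wild types, with a ratio of 4.87 in gas-1 and 2.65 ± 0.54 in RNAi (SD, n = 5). Another P450 gene, cyp-33C8, reached 10.17 in gas-1 and 8.91, 7.75, 7.74, 7.51 and 8.18 in RNAi, against 6.08 and 6.21 in the K12 and HT115 wild types. For both genes gas-1 was the highest of the 8 arrays and every RNAi array exceeded both wild types. The neighbouring gene cyp-14A2 also agreed in sign and threshold, but the sizes were turned round, at 0.63 in gas-1 and 3.18 on average in RNAi, and both wild types were at 2.61 and 2.07, about the filter level of 2.60.

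UDP-glucuronosyltransferases couple sugars to small molecules for excretion, and 4 of 55 were higher in all 6 ratios, against 0.49% of all genes. The leading one, ugt-62, had levels of 10.22 in gas-1 and 9.33, 9.96, 9.76, 10.08 and 10.41 in RNAi, against 7.01 in K12 and 7.65 in HT115 wild type. The groups did not overlap, and gas-1 sat within the RNAi range. The other members were ugt-19 (3.28 in gas-1, 1.61 to 2.78 in RNAi), ugt-66 (1.68, and 1.17 to 2.18) and ugt-46 (0.93, and 0.78 to 1.67). Of glutathione S-transferases, which attach glutathione to electrophiles, 2 of 33 agreed, against 0.49% of all genes. The gene gst-21 stood at 2.86 in gas-1 and 0.82 to 2.93 in RNAi, and gst-19 at 0.95 in gas-1 and 0.94 to 4.59 in RNAi. The P-glycoprotein transporter pgp-9 was higher by 1.43 in gas-1 and by 3.16 ± 0.43 in RNAi (SD, n = 5).

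The cadmium-responsive family member cdr-4 had levels of 10.13 in gas-1 and 8.45, 9.09, 8.55, 9.12 and 9.43 in RNAi, against 7.27 and 7.02 in the K12 and HT115 wild types. Its relative cdr-2 missed the class in 1 array only, with 2.76 in gas-1 and 0.54 in the nduf-6 RNAi array. Both heme genes of the class exceeded both wild types in all loss arrays. The gene hrg-7, whose secreted protein signals heme status from the intestine, stood at 9.68 in gas-1 and 10.02, 11.78, 10.01, 10.96 and 12.39 in RNAi, against 8.17 and 7.51 in the K12 and HT115 wild types. Here every RNAi array lay above gas-1. The heme transporter hrg-1 stood at 1.37 in gas-1 and 1.67 ± 0.42 in RNAi (SD, n = 5).

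C-type lectins, a large family many of whose members respond to bacteria, gave 5 of 94 agreeing higher genes and 1 lower gene. Over all genes the shares were 0.49% and 0.854%. The lectin clec-265 stood at 10.54 in gas-1 and 9.88, 10.32, 10.18, 10.79 and 10.18 in RNAi, against nearly equal wild types at 8.37 in K12 and 8.39 in HT115. Both clec-17 and clec-10 also exceeded both wild types in all loss arrays, with gas-1 ratios of 1.55 and 1.21. The bZIP transcription factor gene zip-10 was 1.3 higher in gas-1 and 1.65 ± 0.29 higher in RNAi, although its K12 wild type, at 8.20, lay inside the RNAi range of 7.94 to 8.72. The insulin-like peptide gene ins-35 stood at 1.36 in gas-1 and 1.71, 3.41, 3.88, 3.5 and 4.54 in RNAi. Of the unnamed genes, F22H10.2 had the narrowest ratios, 1.98 in gas-1 and 1.79, 1.88, 1.63, 1.85 and 2.18 in RNAi, while F15D4.5 had 5.34 in gas-1 and 1.41 to 2.41 in RNAi. B0348.2 and ZK228.4 stood at 2.16 and 3.43 in gas-1 and at 2.87 and 2.3 on average in RNAi.

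**Figure D2:**
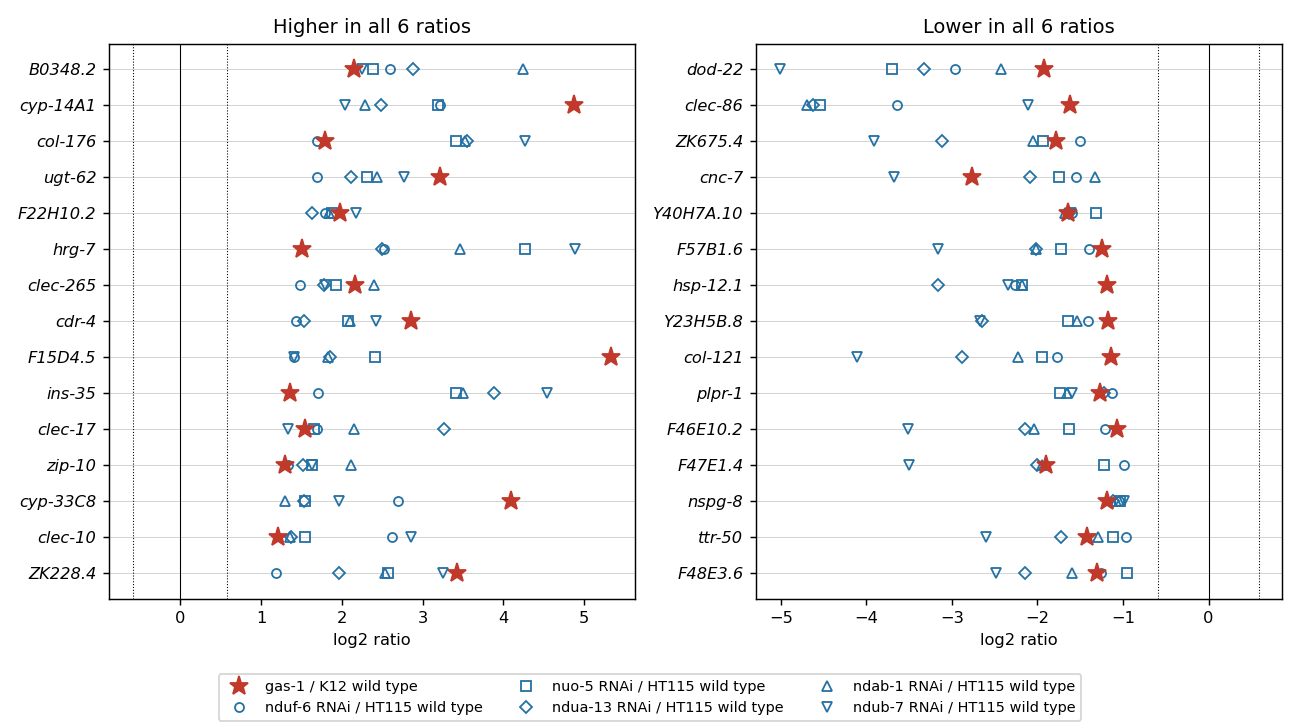
Log2 ratios of the 15 leading genes higher (left panel) and lower (right panel) in all 6 ratios, with 1 row per gene, stars for gas-1 over the K12 wild type and open symbols for the 5 RNAi arrays over the HT115 wild type. Dotted lines mark 1.5-fold. In the left panel gas-1 leads for cyp-14A1, F15D4.5 and cyp-33C8, and in the right panel gas-1 is closest to 0 for dod-22, clec-86 and hsp-12.1.

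Of 10 measured HIF-1 targets and sulfide genes, 2 were in the class, against 0.49% of all genes. The 5 RNAi medians of that group were -0.11, -0.31, -0.15, 0.01 and 0.54. The sulfide:quinone oxidoreductase gene sqrd-1, which feeds electrons from hydrogen sulfide to the same quinone pool as complex I, stood at 0.64 in gas-1 and 1.95, 0.87, 0.73, 1.34 and 0.85 in RNAi. The methanethiol oxidase gene semo-1 stood at 1.66 in gas-1, at 4.39 in the nduf-6 RNAi array and at 0.66 to 0.96 in the other 4. The methyltransferase-like rips-1 stood at 1.59 in gas-1 and between 0.78 and 3.05 in RNAi, and its neighbour R08E5.1 at 0.67 and between 0.61 and 2.45. For semo-1, rips-1 and sqrd-1 the array labelled nduf-6 RNAi was the highest of the 5 RNAi arrays. The mitochondrial Hsp70 gene hsp-6, the usual marker of the mitochondrial unfolded protein response, was among the smallest of the 62, at 0.96 in gas-1 and 0.87, 0.69, 1.18, 0.59 and 1.02 in RNAi. The copper chaperone gene cuc-1 was as even, at 0.95 in gas-1 and 0.84 ± 0.13 in RNAi (SD, n = 5).

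Collagens of the cuticle and secreted signals completed the higher genes. The collagen col-176 stood at 1.79 in gas-1 and at 1.70, 3.42, 3.55, 3.53 and 4.26 in RNAi, and col-90 and sqt-1 stood at 0.78 and 0.64 in gas-1 and were highest in the ndub-7 RNAi array, at 6.92 and 5.92. The insulin-like gene daf-28 and the TGF-beta gene daf-7, both expressed in sensory neurons and known for control of dauer entry, stood at 1.1 and 0.75 in gas-1. Over the 62 genes the median ratio was 1.36 in gas-1 and 1.68 for the RNAi mean. The gas-1 ratio exceeded all 5 RNAi ratios in 13 and lay below all 5 in 18. By level, gas-1 lay above the RNAi mean, with a median difference of 0.60, and K12 minus HT115 had a median of 0.73. These ratios are therefore no comparison of the size of the 2 responses. Just inside and outside the threshold were C27D9.2 and sqst-3, both with a smallest ratio of 0.58.

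The 108 genes lower in all 6 ratios held epidermal antimicrobial peptides, some cuticle collagens and several regulators of transcription. They also held F-box genes, which lay below the median level, as did some of the regulators. Of the 108, 49 met the level condition. The leading gene, dod-22, a CUB-like gene named as downstream of the transcription factor DAF-16, stood at 6.75 in gas-1 and 7.55, 6.81, 7.17, 8.07 and 5.49 in RNAi, against 8.67 in K12 and 10.50 in HT115 wild type. All loss arrays lay below both wild types, and the wild types themselves were 1.83 apart. The caenacin antimicrobial peptide gene cnc-7 stood at -2.77 in gas-1, lower than in any RNAi array but ndub-7 (-1.55, -1.75, -2.09, -1.33 and -3.68). The lectin clec-86 stood at -1.62 in gas-1 and at -4.69 to -2.11 in RNAi.

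The neighbouring genes nlp-28 and nlp-29, which encode antimicrobial peptides of the epidermis, were lower together. The ratio of nlp-29 was -0.87 in gas-1 and -1.31, -1.46, -1.70, -1.2 and -1.36 in RNAi, and every loss array lay at least 1.5-fold below both wild types, whose levels were 11.18 in K12 and 11.56 in HT115. For nlp-28 the ratios were -1.19 in gas-1 and -0.79, -1.62, -1.64, -1.35 and -2.05 in RNAi. Of 113 numbered collagens, 4 were in the class, against 0.854% of all genes. Among them were col-19, an adult cuticle collagen, at -0.69 in gas-1 and -0.81 ± 0.24 in RNAi (SD, n = 5), and col-121, at -1.15 and -2.59. Over all 113 collagens the median was -0.06 in gas-1 and 0.49 for the RNAi mean. In all 5 RNAi arrays 9 of the 113 passed 1.5-fold upward and 6 downward, against 1.8% and 2.65% of all genes. A gene of a small heat shock protein, hsp-12.1, stood at -1.18 in gas-1 and -2.26, -2.18, -3.16, -2.18 and -2.34 in RNAi.

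A group of lower genes had nearly the same ratio in all 6 arrays. The potassium channel accessory subunit gene mps-2 stood at -0.85 in gas-1 and -0.80 ± 0.05 in RNAi (SD, n = 5), and nspg-8 stood at -1.19 and -1.06 ± 0.05. For nspg-8 the levels were 8.57 in gas-1 and 8.85, 8.87, 8.79, 8.82 and 8.92 in RNAi, against 9.76 and 9.9 in the K12 and HT115 wild types. These 6 loss arrays did not overlap the wild types, which differed by only 0.14. The metal transporter gene smf-3 was likewise close in both wild types (5.38 in K12, 5.49 in HT115) and stood at -1.43 in gas-1 and -2.11 ± 0.55 in RNAi.

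Transcription factor genes among the lower genes were atf-2, ces-2, ceh-36, ceh-10 and klf-2, with gas-1 ratios of -0.67, -0.62, -1.11, -0.59 and -1.14. The Notch-family ligand genes dsl-1 and dsl-6 stood at -0.99 and -0.74 in gas-1 and at -1.53 and -1.75 on average in RNAi. F-box genes, whose proteins select targets for ubiquitination, supplied 2 of 102 members of the A family and 3 of 46 of the B family, against 0.854% of all genes. None of these F-box genes met the level condition, and fbxa-122 is annotated as a pseudogene. Over the 108 genes the median ratio was -1.04 in gas-1 and -1.41 for the RNAi mean. The gas-1 ratio was nearer to 0 than all 5 RNAi ratios in 44 genes and farther from 0 than all 5 in 7. By level, gas-1 lay below the RNAi mean, with a median difference of -0.54, and K12 minus HT115 had a median of -1.06. The smaller gas-1 ratios are therefore not read as a weaker response, and the part of the HT115 array in them was not tested. The threshold lay between ceh-10, at -0.59, and nssp-84, at -0.58.

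Several probe sets were available for some of these genes. Among the higher genes, 7 further probe sets of 7 genes all had the same sign in all 6 arrays, and 4 of them passed 1.5-fold in all 6. Among the lower genes, 16 of 18 further probe sets of 15 genes had the same sign and 10 passed the threshold. Neighbouring genes of the same class, such as nlp-28 with nlp-29, bath-9 with bath-10 and rips-1 with R08E5.1, accounted for 6 of the 62 and 8 of the 108 genes. How far near-identical neighbours share probes was not tested.

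A joint test asked whether the 6 loss arrays differed from the wild types once the culture regime was allowed for. Its spread comes from differences among the 6 loss arrays, which hold 5 different RNAi targets and are not replicates of 1 condition. Each wild type is a single array and adds no spread of its own. The model (limma, 8 arrays, a term for culture and a term for complex I loss, 5 residual degrees of freedom) called 2 of 12641 genes (0.0158%) at a Benjamini-Hochberg adjusted p of 0.05, both lower. At an unadjusted p under 0.05 it counted 332 higher and 562 lower genes. The gene nep-14, of the neprilysin family and annotated as a pseudogene, fell by 1.19 ± 0.08 (log2, SE; limma adjusted p = 0.0158). Its levels were 2.76 in gas-1 and 2.75 on average in RNAi, against 3.91 and 3.98 in the K12 and HT115 wild types. Its loss arrays lay close to the filter level of 2.60, where array signals are near background. The call was lost without the nduf-6, nuo-5, ndua-13 or ndab-1 array, with limma adjusted p of 0.0548, 0.0616, 0.118 and 0.0728, and held without the ndub-7 array, at 0.0208.

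The gene Y40H7A.10 fell by 1.59 ± 0.14 (log2, SE; limma adjusted p = 0.0364) and was well expressed. Its levels were 9.79 in gas-1 and 10.46, 10.74, 10.42, 10.38 and 10.45 in RNAi, against 11.43 in K12 and 12.06 in HT115 wild type. Gas-1 was the lowest of the 8 arrays and both wild types were the highest. The call was lost when the nduf-6, ndua-13, ndab-1 or ndub-7 array was left out, with adjusted p of 0.0553, 0.142, 0.0933 and 0.061 in limma, and held without the nuo-5 array, at 0.0426. Among higher genes F22H10.2 came nearest, at 1.91 ± 0.20 (limma adjusted p = 0.0721), and ugt-62 stood at 2.62 ± 0.33 and clec-265 at 1.98 (limma adjusted p = 0.0942 for each). None of the 62 higher genes passed at these settings, while F22H10.2 passed with the filter at the median (limma adjusted p = 0.0496) and with no filter (0.0319), and over all its alternatives its adjusted p reached 0.999.

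The size of both agreeing classes depended on the wild types. With the K12 wild type under all 6 arrays there were 59 higher and 50 lower genes, of which 21 and 18 were among the 62 and the 108, although a control array shared by all 6 ratios by itself makes agreement more frequent. The HT115 wild type was the lowest of the 8 arrays in 52 of the 62 and the highest in 103 of the 108, a position that the choice of members favours, since every RNAi array had to lie past it. For the same reason nothing is read from the wild types being at least 1.5-fold apart in 37 of the 62 (59.7%) and 85 of the 108 (78.7%). Requiring every loss array to pass 1.5-fold against both wild types, a condition chosen after seeing the data, left 21 higher genes (0.166%) and 17 lower genes (0.134%). The part of the HT115 array in the remaining agreeing genes was not tested.

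Among the 21 higher genes were cyp-14A1, cyp-14A2, cyp-33C8, ugt-19, ugt-62, cdr-4, hrg-1, hrg-7, the lectins clec-10, clec-17 and clec-265, the cathepsin B-like protease gene cpr-8 and the nuclear hormone receptor gene nhr-115. Levels of nhr-115 were 7.48 in gas-1 and 5.53 on average in RNAi, against 3.88 and 3.93 in the K12 and HT115 wild types. The 17 lower genes included dod-22, nlp-29, smf-3, nspg-8, nep-14, Y40H7A.10, the lipase-like gene fil-2 and the Dachshund homologue dach-1. Of these named genes, smf-3, nep-14 and fil-2 did not meet the level condition. Nor did pro-3, fbxa-71, C40H1.2, T22F3.8, C24H12.7, Y50E8A.5, lgc-20 and srab-4, which were also among the 17. Levels of fil-2 were 2.07 in gas-1 and 2.44 on average in RNAi, below the filter level of 2.60. The genes pgp-9, gst-19, gst-21, ugt-46, ugt-66, clec-52, sqrd-1, semo-1, rips-1, hsp-6 and the collagens col-90, col-176 and sqt-1 did not meet this condition.

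**Figure D3:**
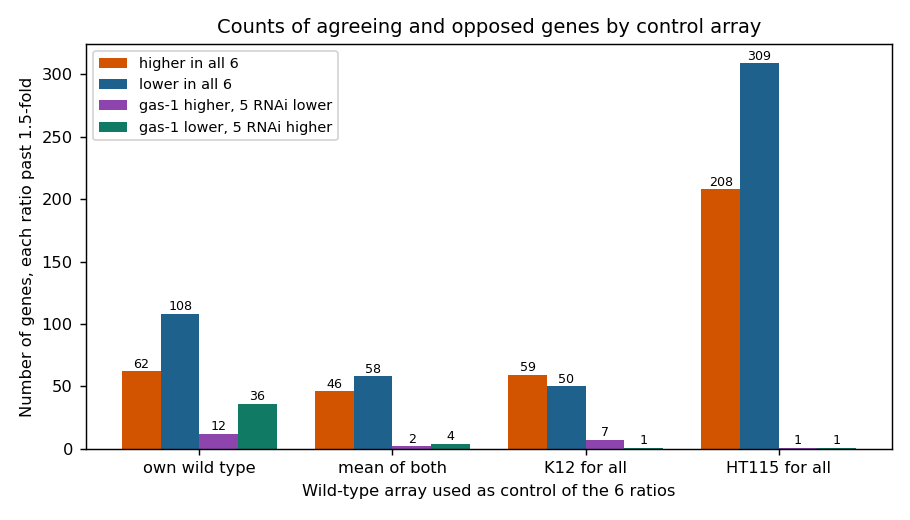
Numbers of genes agreeing in all 6 ratios and of opposed genes under each choice of wild-type control. The counts of agreeing genes were largest with the HT115 wild type under all 6 arrays, at 208 and 309, and the opposed counts were 7 and 1 with the K12 wild type and 1 and 1 with HT115, where gas-1 and RNAi ratios share the control array.

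In 36 genes gas-1 stood below and all 5 RNAi arrays above their own wild type, and these included cuticle collagens and hedgehog-related genes, groups known to peak in expression around moults. The cuticlin gene cut-1 had levels of 9.71 in gas-1 and 8.39, 10.64, 11.84, 11.59 and 9.12 in RNAi, against 11.24 in K12 and 7.36 in HT115 wild type. The gas-1 level lay inside the RNAi range, and the wild types were 3.87 apart. The same order held for grl-20, a hedgehog-related gene, with 11.21 in gas-1 and 9.9, 11.5, 12.81, 12.74 and 9.93 in RNAi, and with the K12 wild type 3.8 above the HT115 wild type, which was at 8.5.

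Collagen col-36 repeated it, with 11.64 in gas-1 and 10.07 to 13.41 in RNAi, against 12.48 in K12 and 9.17 in HT115 wild type. In all, 4 of 113 numbered collagens and 3 of 43 hedgehog-related genes were in this class, against 0.285% of all genes. The cuticle collagen rol-8, the patched-related ptr-3 and the tubulin gene tba-8 were in it too. The K12 wild type was above HT115 in all 36 genes, by at least 1.5-fold in 35 (97.2%), which the rule favours unless gas-1 lies well below the RNAi arrays. The gap between wild types exceeded the gap between gas-1 and the RNAi mean in 29, so that in 7 it did not. With the K12 or the HT115 wild type under all 6 arrays, 1 gene was opposed in this direction, but a shared control array by itself makes opposed ratios rarer, and by how much was not tested.

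The ZK218 genes were different. ZK218.5 stood at 2.79 in gas-1 and at 9.36, 9.46, 9.98, 10.10 and 10.44 in RNAi, against 9.18 in K12 and 7.07 in HT115 wild type. Here gas-1 was far below the other 7 arrays and close to background. The gas-1 ratio was -6.39, against 2.8 ± 0.45 in RNAi (SD, n = 5), and the difference in response passed the test (limma adjusted p = 0.0103). With gas-1 near background the size of the difference is not exact, and the call was lost without the ndua-13 or the ndab-1 array (0.0599 and 0.0617). The genes with the same name stem, ZK218.3 and ZK218.11, stood at -1.98 and -1.26 in gas-1 and at 2.73 and 3.53 on average in RNAi. For both, gas-1 and the HT115 wild type had nearly the same low level.

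In 12 genes gas-1 stood above and all 5 RNAi arrays below their wild type. F15E6.4 had 10.52 in gas-1 and 9.25, 9.46, 8.47, 8.6 and 8.73 in RNAi, against 8.63 in K12 and 10.49 in HT115 wild type. The collagen col-101 had 11.25 in gas-1 and 10.07 to 11.31 in RNAi, against 9.41 and 12.05 in the K12 and HT115 wild types. The nitrilase gene nit-1 stood at 0.90 in gas-1 and -1.03 ± 0.19 in RNAi (SD, n = 5). For each, the K12 wild type lay at least 1.5-fold below HT115, as in 11 of the 12 genes (91.7%), again a position the rule favours, and the gas-1 level lay within the RNAi range in col-101 and nit-1 and above it in F15E6.4.

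**Figure D4:**
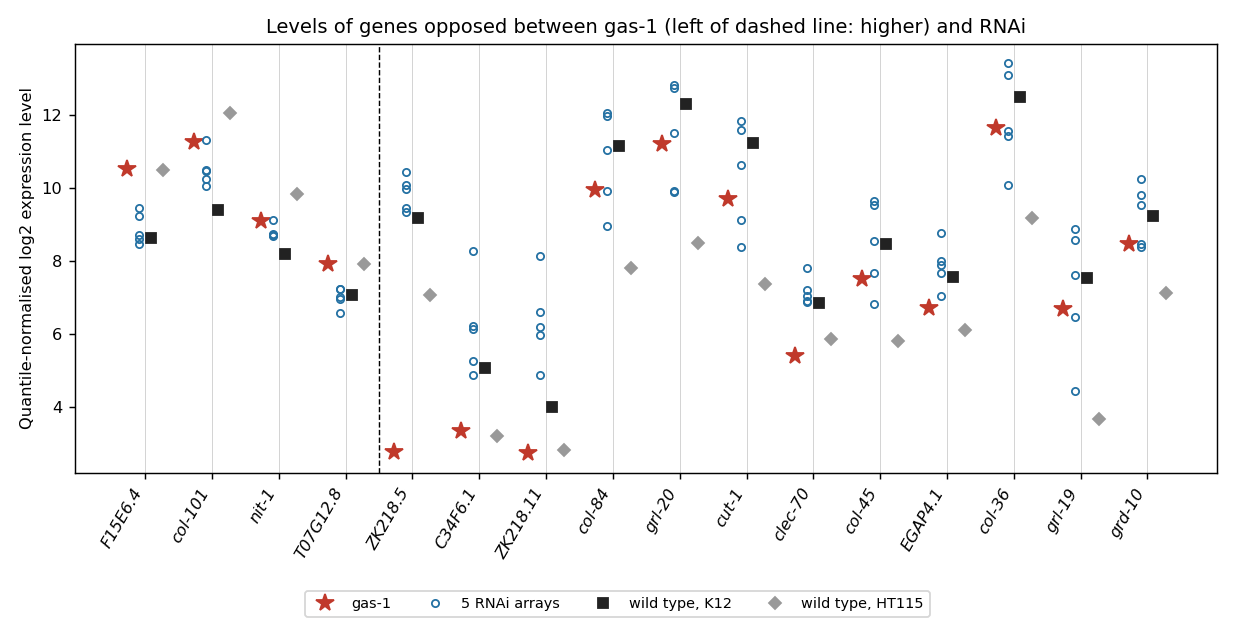
Log2 levels in the 8 arrays of the leading opposed genes, with gas-1 and the 5 RNAi arrays drawn beside the K12 and HT115 wild types. For cut-1, grl-20 and col-36 the gas-1 point falls among the RNAi points and the wild types lie apart, whereas for ZK218.5 gas-1 alone stands at 2.79.

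The difference between the gas-1 response and the mean RNAi response was tested with limma in a model with 4 groups, in which the spread comes from the 5 RNAi arrays alone and each single array is assumed to vary like them. It called 32 genes (0.253%), 31 with the higher response in gas-1 and 1, ZK218.5, with the lower. With the filter on low values raised to the median of all probe sets, ZK218.5 was the 1 call left and 0 were higher. Counts at an unadjusted p under 0.05 were 364 and 136. The count was 21 without the nuo-5 array, 16 without the ndua-13 array and 14 without the ndab-1 array. For 25 of the 32 only the gas-1 ratio passed 1.5-fold, for 5 only the RNAi ratios did, and for ZK218.5 and the potassium channel gene twk-45 both did.

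The leading genes of the 25 lay at or near the filter level of 2.60, or below it, in the other 7 arrays, so their spread is that of values near background and the calls are given as a description only. Y49G5A.1 stood at 7.38 in gas-1 and 2.29 on average in RNAi, against 2.27 in each wild type. The glutathione S-transferase gene gst-14 stood at 6.4 in gas-1 and 2.24 in RNAi, against 2.2 and 2.21 in the K12 and HT115 wild types. F57G8.7, R03H10.6 and C49G7.12 stood at 6.94, 6.60 and 6.39 in gas-1 and at 2.2, 2.07 and 2.59 on average in RNAi. The sizes of these differences, given further below, are not exact. In 10 of the 32 genes every single RNAi array and both wild types lay below the filter level of 2.60. Only 3 of the 32 had a gas-1 level above the median.

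Further genes of foreign-compound and fat metabolism were in this set. The acyl-CoA dehydrogenase gene acdh-2 stood at 6.53 in gas-1 and 3.38 in RNAi, against 3.62 and 3.78 in the K12 and HT115 wild types, a difference of 3.31 ± 0.37 (limma adjusted p = 0.0415). The genes ugt-27, pgp-8 and clec-43 stood at 4.47, 4.09 and 4.8 in gas-1 and near background in the other arrays. The mean used by the filter includes gas-1, and their spread is that of values near background, so these calls are a description only. They were 1 of 55 UDP-glucuronosyltransferases, 1 of 12 ABC transporters and P-glycoproteins and 1 of 94 C-type lectins, against 0.253% of all genes. The 5 genes with only RNAi ratios past 1.5-fold, among them the hedgehog-related grl-11, had an HT115 wild type that stood apart from the other arrays. For grl-11 the levels were 2.47 in gas-1 and 2.49 on average in RNAi, against 2.49 in K12 and 5.49 in HT115 wild type. Against the HT115 wild type alone, the RNAi arrays gave 15 calls in limma (0.119%), 14 of them lower (5, 4 and 5 calls without the nuo-5, ndua-13 or ndab-1 array, 23 without nduf-6 and 34 without ndub-7), and 5 of these were among the 108 agreeing lower genes (C07D10.1, cutl-11, nep-14, pro-3 and ZC84.6).

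Gene groups were then followed through the 6 ratios, by the median of their members and without a test, since the groups were chosen with results known. All 30 measured complex I genes stood above the K12 wild type in gas-1, with a median of 0.38, but only 2 passed 1.5-fold. Over all genes 7.82% passed it upward in gas-1. The RNAi medians were -0.14, 0.11, 0.04, 0.14 and 0.45, and 20 of the 30 stood above HT115 on average. The median over all genes was 0.00 in gas-1 and between -0.07 and 0.04 in RNAi. No member of complexes I to IV or of the ATP synthase was among the 62 or 108 agreeing genes, or was called in the joint or the response test. Over all genes these shares were 0.49%, 0.854%, 0.0158% and 0.253%, so absence from groups this small is close to the share.

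Single subunits of complex I differed in pattern. The flavoprotein subunit gene nduv-2 stood at 12.05 in gas-1 and 11.68 on average in RNAi, against 11.49 in K12 and 12.62 in HT115 wild type. Its ratio was 0.56 in gas-1 and -0.94 ± 0.14 in RNAi (SD, n = 5), and the difference in response, 1.5 ± 0.29, did not pass (limma adjusted p = 0.346). The iron-sulfur subunit gene nduf-7 stood above the wild type throughout, at 0.52 in gas-1 and 0.79 ± 0.14 in RNAi. Complex III genes had a median of 0.46 in gas-1 and 0.29 for the RNAi mean, and complex IV genes 0.33 and 0.06. The RNAi medians of complexes III and IV and of the ATP synthase lay above 0 in all 5 arrays, at 0.10 to 0.54, 0.03 to 0.22 and 0.09 to 0.35, and no gene of complex IV or the ATP synthase passed 1.5-fold in gas-1.

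The mitochondrial stress genes gave 1 agreeing gene, hsp-6, of 13 measured, against 0.49% of all genes. Their median was 0.37 in gas-1 and 0.34 for the RNAi mean. The small ubiquitin-like ubl-5 stood at 0.53 in gas-1 and -1.03 ± 0.39 in RNAi, and the import genes timm-23 and tin-13 at 1.69 and 0.42 in gas-1 and 0.37 and -1.01 on average in RNAi. Small heat shock and inducible Hsp70 genes, which mark cytosolic stress, had a median of 1.02 in gas-1 and 0.81, 0.52, 0.42, 0.64 and -0.65 in RNAi. With the filter at the median the gas-1 value was 0.20. The small heat shock gene hsp-16.2 stood at 3.23 in gas-1 and 1.35 ± 0.81 in RNAi.

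Over all genes, 7.82% passed 1.5-fold upward and 9.49% downward in gas-1, and 1.8% passed upward in all 5 RNAi arrays. Of 55 UDP-glucuronosyltransferases, 25 passed 1.5-fold upward in gas-1 and 4 downward, and 4 passed upward in all 5 RNAi arrays. The medians were 0.54 in gas-1 and 0.23 for the RNAi mean. Of 33 glutathione S-transferases, 12 passed upward and 3 downward in gas-1, and 3 passed upward in all 5 RNAi arrays. Passing in 5 arrays is the stricter condition, met by 228 of all genes against 988 in gas-1, so these pairs of counts are no comparison of responses. Of 51 cytochrome P450s, 19 passed upward and 12 downward in gas-1, with a median of 0.18, and of 29 short-chain dehydrogenases 2 and 4, with a median of -0.01. The oxidative stress reporter gene gst-4 stood at 9.48 in gas-1 and 7.35 on average in RNAi, against 5.44 in K12 and 7.28 in HT115 wild type, and the wild types differed as well.

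Among the metabolic groups, acdh-1, an acyl-CoA dehydrogenase gene induced when propionate accumulates, stood at 13.61 in gas-1 and 11.36 on average in RNAi, against 8.56 and 9.61 in the K12 and HT115 wild types. Its RNAi ratios were 2.28, 1.81, -0.20, 1.54 and 3.29, so the array labelled ndua-13 RNAi kept it out of the agreeing class. The hydratase gene ech-6 of the same pathway stood at 1.16 in gas-1 and 0.85 ± 0.55 in RNAi. Lipase genes had a median of -0.97 in gas-1, where all 9 stood below the K12 wild type. In RNAi their medians were 0.09, -0.03, 0.08, 0.17 and -0.24, and the median of the RNAi means, 0.23, was 0.06 without the nduf-6 or the nuo-5 array and -0.29 with the filter at the median. The methionine cycle gene sams-1 stood at -0.19 in gas-1 and 1.44 ± 0.61 in RNAi, and the cycle's medians were -0.21 and 0.41. Fatty acid synthesis genes had medians of -0.35 and 0.21.

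Hedgehog-related, moulting and pharyngeal genes had medians below 0 in gas-1 and medians on both sides of 0 across the RNAi arrays. Of 43 hedgehog-related genes, 19 passed 1.5-fold downward in gas-1 and none upward, against 9.49% and 7.82% of all genes. Their median was -0.50 in gas-1, and the RNAi medians were -0.11, 0.23, 0.23, 0.62 and 0.97. Moulting genes had a median of -0.64 in gas-1 and -0.42, -0.33, 0.06, 0.36 and 1.04 in RNAi. Pharynx muscle markers had -0.82 in gas-1 and 0.19 for the RNAi mean, with myosin genes myo-1 and myo-2 at -0.81 and -0.91 in gas-1 and 0.73 and 0.80 on average in RNAi. Neuronal markers and FMRFamide-like peptides had medians of -0.16 and 0.08 in gas-1 and of 0.44 and 0.78 for the RNAi mean, and the K12 wild type exceeded HT115 by 0.82 and 1.18 in these groups.

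Markers of other cell types moved between arrays as well. The 34 sperm genes had medians of -0.02 in gas-1 and -2.59, 0.40, 0.14, 0.76 and 1.98 in RNAi, and the 15 oocyte and eggshell genes -0.13 in gas-1 and 0.30, 0.13, -0.07, -0.25 and -0.81. The array labelled nduf-6 RNAi had the lowest sperm median and the array labelled ndub-7 RNAi the highest, together with the highest moulting median. No sperm, oocyte or moulting marker was in an agreeing class. Those classes held 0.49% and 0.854% of all genes, so absence from groups this small is close to the share. The part of the marker shifts in the results was not tested.

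**Figure D5:**
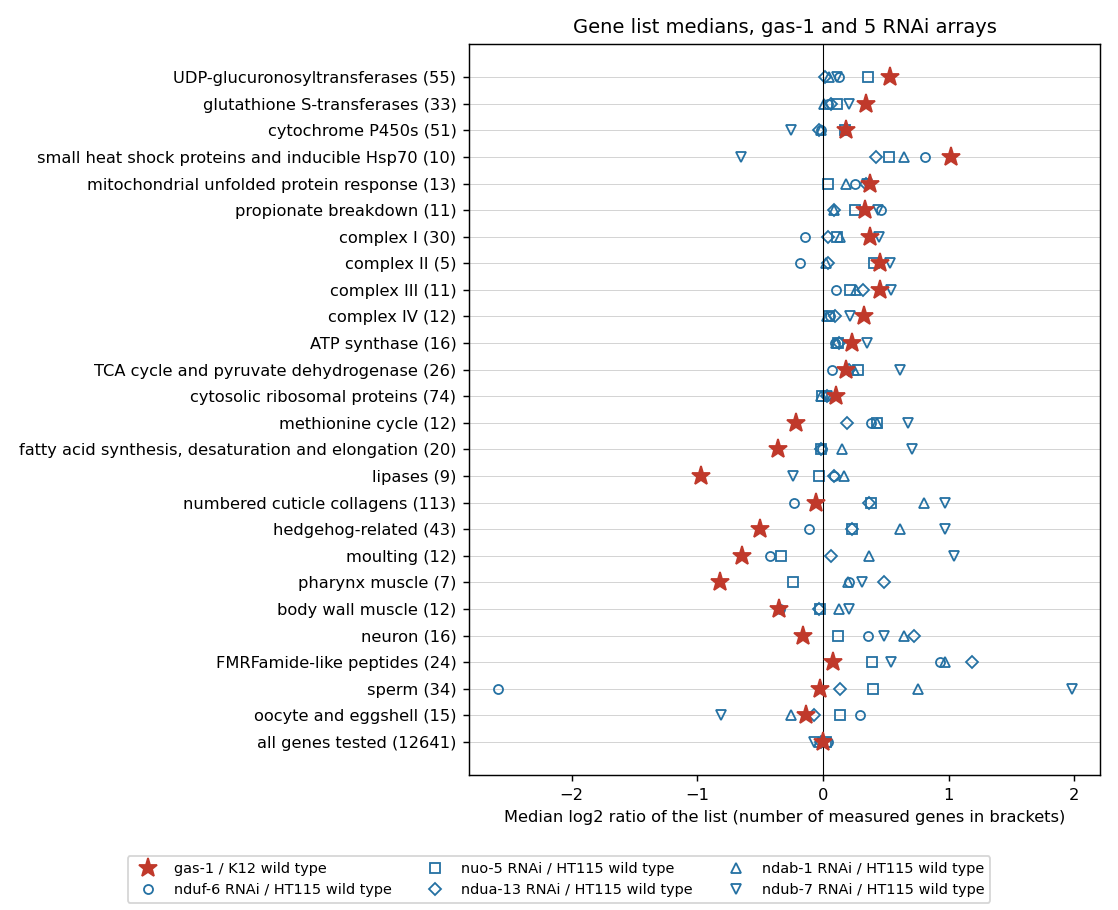
Median log2 ratio of the members of each gene group, with stars for gas-1 over the K12 wild type and open symbols for the 5 RNAi arrays over the HT115 wild type. Gas-1 lies right of 0 for the respiratory chain and the UDP-glucuronosyltransferases and left of the RNAi arrays for pharynx muscle and lipases, and the sperm medians run from -2.59 to 1.98 in RNAi.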

How the data were processed

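RNA of 8 arrays of the complex I comparison, from a series of 10, was analysed. The deposited values are log2 expression per probe set, made by the authors; the software, summarisation and normalisation behind them are not given in the sources used here. Per the labels' protocols, RNA of 3 biological replicates was pooled per array, so the number of arrays limits precision and p-values do not hold the spread between cultures.

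The deposited log2 values had medians within 0.128 of each other and were quantile-normalised again over the 10 arrays. The platform holds 22625 probe sets, and its 77 controls were removed. Platform annotation gave 1 gene symbol for 20766, several for 887 and none for 895, and 20701 were matched to RefSeq (WBcel235) by Entrez number for names and neighbours. Probe sets with 1 symbol whose mean over the 10 arrays reached the 25th percentile over all probe sets but controls (2.60) were kept, 15803 in all, and the probe set with the highest mean stood for each of 12641 genes. A ratio past 1.5-fold is 0.58 on the log2 scale.

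Tests used limma 3.58.1 in R 4.3.3 with Benjamini-Hochberg adjustment over all genes. They were also run on simulated data, whose outcome is not given here and is not used as support for the calls. The gas-1 against K12 ratio is 1 array against 1 and has no test.

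A rule chose the genes that are named: gas-1 and the RNAi targets, up to 15 agreeing genes and up to 12 opposed genes per direction by the smallest absolute ratio among those whose higher arrays passed the median level, up to 5 per direction by the smallest p of each test, and up to 4 and 3 members of each list by the smallest p of the 2 tests. Other genes were named after their values were seen. The members and the 52 gene lists were chosen with earlier results of these data known. Alternatives covered normalisation, filter, fold threshold, probe set choice, control array, model terms and leaving out each RNAi array.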

Additional observations from a re-analysis of the deposited data

Results flagged for a closer look

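In 104 groups of 5 RNAi ratios (52 genes and 52 gene groups), 8 had 1 array far from the other 4 by Dixon's test, where chance gives about 1 in 20. The genes were Y40H7A.10, at -1.31 in the array labelled nuo-5 RNAi, hsp-12.1, at -3.16 in the array labelled ndua-13 RNAi, and nit-1, at -0.69 in the nduf-6 RNAi array. The array labelled ndub-7 RNAi stood apart in the medians of ATP synthase genes (0.35), fatty acid synthesis genes (0.71), small heat shock and Hsp70 genes (-0.65) and cathepsin and aspartyl proteases (-0.24), and the nduf-6 RNAi array in that of insulin-like peptides (0.58).

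The gas-1 response minus the mean RNAi response passed the limma test for ZK218.5 (-9.19), Y49G5A.1 (5.09), F57G8.7 (4.73), R03H10.6 (4.48), gst-14 (4.18) and C49G7.12 (3.78). ZK218.5 is near background in gas-1 and the other 5 genes are near background in the other 7 arrays used here, so these sizes are not exact. For those 5 genes the spread is that of values near background, so their calls are given as a description only. The mean used by the filter includes gas-1, where those 5 genes stood high. The other opposed genes named here did not pass the limma test. F15E6.4 differed by 3.48, col-101 by 3.36, nit-1 by 1.92 and T07G12.8 by 1.79. In the other direction the differences were -4.65 for C34F6.1, -4.79 for ZK218.11, -4.18 for col-84, -3.96 for grl-20, -4.48 for cut-1, -2.75 for clec-70, -3.59 for col-45, -2.64 for EGAP4.1, -3.58 for col-36, -4.38 for grl-19 and -2.92 for grd-10.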

How the results depend on the processing

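Settings were changed one at a time. The joint test called 2 genes; it called 1 on the deposited values, 0 after median centring, 15 with no filter, 0 with no mean-variance trend, and 0 to 1 with an RNAi array left out. The response difference called 32; it called 21 after median centring, 338 with no filter, 1 with the filter at the median (0 higher and 1 lower, against 31 and 1), 13 with no trend, and 14 to 37 with an RNAi array left out. RNAi against the HT115 wild type called 15; it called 4 after median centring, 285 with no filter, 0 with the filter at the median, 4 with no trend, and 4 to 34 with an RNAi array left out. With no filter, genes below 2.60 were added.

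Counts need not hold the same genes. Against 62 agreeing higher genes there were 187 at a looser threshold (a ratio of 5 to 4), 22 at 2-fold, 208 with HT115 under all arrays and 21 past both wild types, and 66 to 109 with an RNAi array left out, most without the array labelled nduf-6 RNAi. Against 108 lower genes there were 51 with the filter at the median, 320 at 5 to 4, 23 at 2-fold, 58 with the mean of both wild types (35 shared), 309 with HT115 (107 shared), 50 with K12 (18 shared) and 17 past both, and 113 to 170 with an array left out. Against 12 genes higher in gas-1 and lower in RNAi there were 6, 72, 1, 2, 1 and 7 under the filter at the median, 5 to 4, 2-fold, the mean of both, HT115 and K12, with none of the 2 and none of the 7 among the 12, and 12 to 29 with an array left out. Against 36 genes of the opposite kind there were 21, 106, 10, 4, 1 and 1 in the same order, and 37 to 69. Leaving out an array asks for 5 ratios in place of 6, so these counts can only stay or grow; the cause of the other changes was not tested.

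Of the single genes 0 changed sign. Of the medians of gene groups and of all genes, 13 in gas-1 and 18 in RNAi did under some setting, among them C-type lectins in gas-1 (-0.03, and 0.01, 0.09 and 0.02 on deposited values, after median centring and with the filter at the median), lipases in RNAi (0.23, and -0.29 with that filter), and sperm and moulting genes in RNAi without the ndub-7 array (-0.34 and -0.06). The joint call of nep-14 was also lost after median centring, with no trend and with all 10 arrays (-0.99). The joint call of Y40H7A.10 was also lost on deposited or median-centred values, with no trend, with no culture term (-1.37) and with all 10 arrays (-1.28). Without the array labelled ndua-13 RNAi or ndab-1 RNAi, ZK218.5 lost its call at -9.16 and -9.13. No paired analysis was possible because gas-1 and each wild type are single arrays and the labels pair no RNAi array with any of them.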

Other observations

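The superoxide dismutase gene sod-3, known as a target of DAF-16, stood at 7.18 in gas-1 and 7.11 on average in RNAi, against 6.84 in K12 and 4.46 in HT115 wild type. Its ratios were 0.34 in gas-1 and 2.65 ± 0.90 in RNAi (SD, n = 5), although gas-1 and RNAi levels were nearly the same. The infection response gene irg-5 stood at 9.29 in gas-1 and 4.09 in RNAi, against 3.23 and 4.38 in the K12 and HT115 wild types, and its difference in response did not pass (limma adjusted p = 0.608).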
